A study of Mus musculus with 15 samples.

Results

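Of the 15 arrays of the series, 6 came from female C57BL/6 mice injected intraperitoneally with 5-azacytidine (AzaC), and the comparison described here sets the 3 arrays labelled pregnant (day 21) against the 3 labelled virgin (9 weeks), chosen by their labels alone. Gene expression was measured on Affymetrix arrays from the mRNA of mammary epithelial cells, which had been freed from whole glands by digestion; the mRNA was turned into biotin-labelled cRNA. The other arrays came from mice of the same strain and sex given valproic acid (VPA; 3 pregnant and 2 virgin) or phosphate-buffered saline (PBS; 2 pregnant and 2 virgin). Each of 12393 genes was read from 1 probe set, and every value below is on the authors' log2 signal scale, where a difference of 1 is a ratio of 2. Doses, injection times and the age of the pregnant mice are not given in the labels. The labels also do not say whether replicates are separate mice, so p-values measure only the spread between these samples, which may be technical.

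AzaC is a cytidine analogue that is built into nucleic acids and traps DNA methyltransferases, so that methylation is lost as cells divide; VPA inhibits histone deacetylases. In late pregnancy the alveolar luminal cells of the mammary gland begin to make milk: they switch on casein and whey protein genes, make fatty acids and sterols for milk fat from glucose, and enlarge the endoplasmic reticulum that exports milk protein. A virgin gland is mostly ducts, with luminal progenitor, hormone-sensing and basal cells, and makes little milk protein. When milk removal stops, the gland involutes, and STAT3 target genes such as Socs3 rise while milk synthesis is shut down.

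The arrays labelled virgin did not carry the low milk transcripts of a virgin gland. Beta-casein (Csn2) averaged 13.85 ± 0.13 on the pregnant AzaC arrays and 13.89 ± 0.08 on the virgin AzaC arrays (SD, n = 3 each), where the highest value of the whole table is 14.48. Alpha-lactalbumin (Lalba) averaged 14.27 ± 0.07 with the pregnant label and 14.27 ± 0.04 with the virgin label (SD, n = 3 each). Whether probes this bright were saturated was not tested. The groups are called by their labels throughout. One array stood apart from its group: on the leading principal component (54.1% of the variance between all 15 arrays), the pregnant AzaC arrays lay at 34.1, 14.6 and 41.7 and the virgin AzaC arrays at -31.5, 2.1 and 8.0. Virgin AzaC replicate 1 thus lay beside the PBS arrays (-10.7 to -31.1) and the virgin VPA arrays (-29.1 and -25.6). Of the pregnant AzaC arrays, replicate 2 was nearest to the other virgin AzaC arrays. Array medians ran from 7.22 to 7.47 over the series. Gapdh 3' probes exceeded its 5' probes by 0.85, -0.12 and 0.20 on the pregnant AzaC arrays and by 0.07, 0.14 and 0.11 on the virgin AzaC arrays, a measure of RNA integrity in which pregnant replicate 1 was the highest. The same difference for Actb was 0.46, 0.13 and 0.20 on the pregnant AzaC arrays. On the virgin AzaC arrays it was 0.48, 0.34 and 0.38, and there virgin replicate 1 was the highest of all AzaC arrays.

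Under AzaC, genes that fell with the pregnant label included 5 of 19 for cholesterol synthesis and 5 of 25 for fatty acid and triglyceride synthesis, while the cytokine signalling inhibitor Socs3 was among the few that rose. The caseins Csn2 and Csn1s1 differed between the groups by -0.03 and 0.05. Of the 12393 genes, 152 passed an adjusted p of 0.05 in limma, 1.23% of those tested. Of these, 15 rose (0.121%) and 137 fell (1.11%) with the pregnant label. The median change was 1.64 among the genes that rose, -1.11 among those that fell and 0.02 over all genes. Genes that fell were bright, with a median level of 10.27 over all arrays, against 6.53 for genes that rose and 7.79 for all genes. In all 152 the values of the 3 pregnant and 3 virgin arrays did not overlap, as was the case for 22.8% of all genes (8.81% with the pregnant arrays all above and 14.0% with them all below).

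These calls lie close to the threshold and depend on single arrays. The lowest adjusted p was 0.0125 and the highest among the called genes 0.0497 (limma). Without virgin AzaC replicate 1, no gene passed in limma, with a lowest adjusted p of 0.0808. The change of the 152 genes was then a median 0.94 times (0.75 to 1.24) that with all arrays. Their direction could not reverse, because the 2 groups do not overlap in any of the 152. Virgin AzaC replicate 1 was the highest of the 3 virgin arrays in 88 of the 137 genes that fell and the lowest in 11 of the 15 that rose. Pregnant AzaC replicate 2 was the highest of the 3 pregnant arrays in 101 of the 137 genes that fell, and 501 genes passed without it. Each of the other arrays, left out in turn, reduced the count to between 4 and 7.

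**Figure D1:**
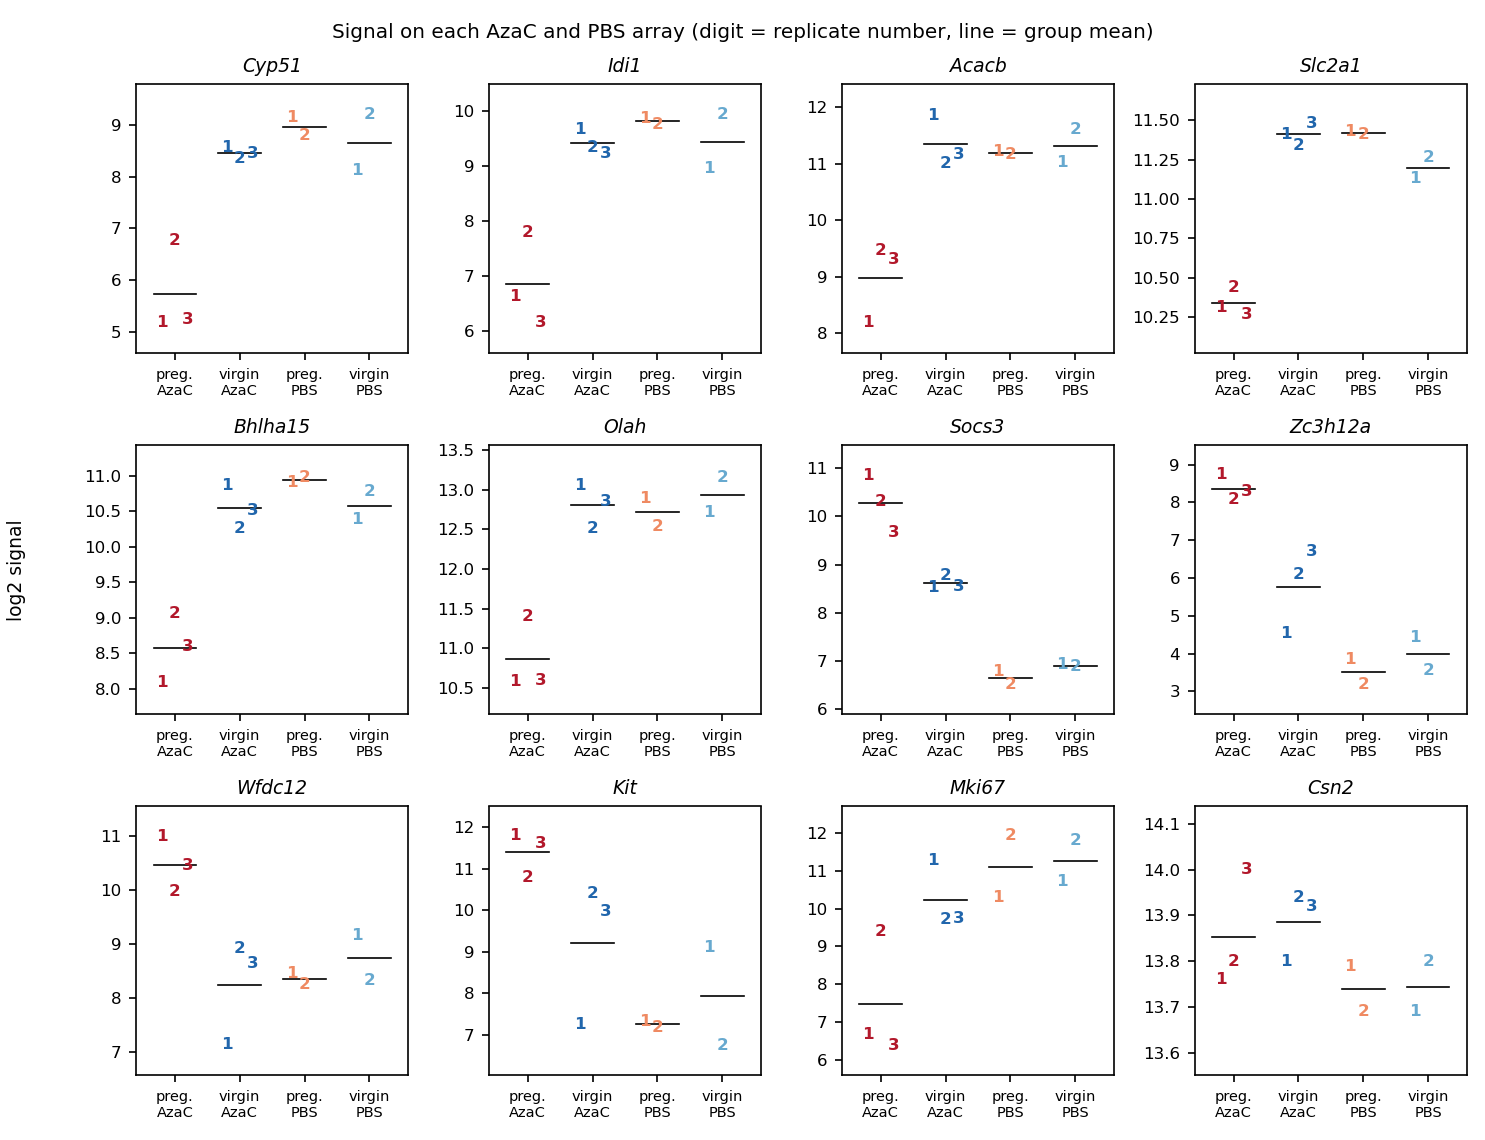
Log2 signal (vertical axis, own range in each panel) of 12 genes on the pregnant AzaC, virgin AzaC, pregnant PBS and virgin PBS arrays (horizontal axis); digits are replicate numbers and lines are group means. The pregnant AzaC arrays lie below the other groups for Cyp51, Idi1, Acacb, Slc2a1, Bhlha15 and Olah and above them for Socs3, Zc3h12a and Wfdc12, whereas Csn2 spans only 13.69 to 14.00.

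The called genes with the largest falls, Cyp51 and Idi1, belong to cholesterol synthesis, the pathway that turns acetyl-CoA into mevalonate, isoprenoids and sterols. Of 24 genes listed, 19 were measured, and 5 of them fell (1.11% of all genes fell) and none rose: Cyp51, Idi1, Fdps, Sqle and Msmo1. The median change over the 19 was -1.10, against 0.02 over all genes, and 17 of them had all pregnant arrays below all virgin arrays (14.0% of all genes). Cyp51, the lanosterol demethylase, had 5.17, 6.77 and 5.24 on the pregnant AzaC arrays, against 8.56, 8.35 and 8.44 on the virgin AzaC arrays. Its change of -2.72 (SE 0.44; limma adjusted p = 0.0265) was the largest fall among the called genes. Pregnant replicate 2 lay nearest to the virgin arrays, without reaching them. Idi1, which interconverts the pathway's isoprene units, had 6.63, 7.80 and 6.16 with the pregnant label, against 9.66, 9.33 and 9.22 with the virgin label, a change of -2.54 (SE 0.39; limma adjusted p = 0.0243).

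Fdps, which makes farnesyl diphosphate, showed the same order of arrays. It had 7.84, 9.97 and 7.99 in pregnant AzaC cells, against 11.33, 10.90 and 10.82 in virgin AzaC cells, and changed by -2.42 (SE 0.45; limma adjusted p = 0.0333). With the mean of its 2 probe sets the change was -1.19 and did not pass (limma adjusted p = 0.268). Squalene epoxidase (Sqle) and the sterol methyl oxidase Msmo1 both fell by 2.14, with SEs of 0.38 and 0.33 (limma, adjusted p = 0.0316 and 0.0243). Among the members that did not pass, Dhcr7, which catalyses the last step to cholesterol, averaged 7.63 ± 0.15 in pregnant cells and 8.99 ± 0.06 in virgin cells (SD, n = 3 each; limma adjusted p = 0.103). Nsdhl was the single measured member with a positive change, of 0.17 (limma adjusted p = 0.591). Srebf2, the transcription factor that drives the pathway, averaged 10.17 ± 0.02 in pregnant cells and 10.18 ± 0.21 in virgin cells (SD, n = 3 each; limma adjusted p = 0.977). The mean level of the 19 members was 8.08, 8.72 and 8.08 on the pregnant AzaC arrays, against 9.77, 9.42 and 9.47 on the virgin AzaC arrays. Without virgin replicate 1 the median change of the list was -0.87.

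The promoters of Cyp51 and Acacb, the called member with the largest fall in the sterol list and in the fatty acid list, are shown because SREBP, NF-Y and Sp1 factors, which control such genes, bind near their starts. Both are RefSeq sequences of GRCm38.p6, 300 bases around the gene's start, written in the gene's own direction. Cyp51 is on the minus strand at chr5:4104648-4104947 and Acacb on the plus strand at chr5:114165268-114165567. Capitals mark matches to the searched motifs.
Cyp51: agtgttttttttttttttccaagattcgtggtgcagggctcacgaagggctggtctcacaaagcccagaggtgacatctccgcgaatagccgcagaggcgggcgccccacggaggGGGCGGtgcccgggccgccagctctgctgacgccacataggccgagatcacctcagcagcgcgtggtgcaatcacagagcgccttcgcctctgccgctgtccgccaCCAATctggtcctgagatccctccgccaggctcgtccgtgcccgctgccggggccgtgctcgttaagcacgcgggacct
Acacb: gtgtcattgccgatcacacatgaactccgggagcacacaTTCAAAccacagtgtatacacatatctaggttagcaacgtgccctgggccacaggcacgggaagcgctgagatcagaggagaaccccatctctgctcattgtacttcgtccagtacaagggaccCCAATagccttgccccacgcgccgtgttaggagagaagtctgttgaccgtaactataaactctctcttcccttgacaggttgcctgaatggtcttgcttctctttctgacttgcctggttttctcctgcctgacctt

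A set of 7 motifs was searched on both strands, of which TCACNCCAC was added after the values were seen: CCAAT (NF-Y), GGGCGG (Sp1), TCACNCCAC (sterol response element), CACGTG (E-box), TGACGTCA (cyclic AMP response), TGACTCA (AP-1) and TTTGAA. The Cyp51 window held GGGCGG at base 116 and CCAAT at base 222. The Acacb window held CCAAT at base 164 and TTTGAA on the reverse strand at base 40. CCAAT was present in 37.4%, GGGCGG in 35.7%, TTTGAA in 17.9% and TCACNCCAC in 1.24% of the 32851 promoters of the table, and the printed matches do not overlap. CACGTG was present in 7.15%, TGACTCA in 5.2% and TGACGTCA in 1.79%. A match is given as a description only. Idi1 had 2 matches to CCAAT and 1 to GGGCGG, and Msmo1 had 3 to CCAAT, 2 to GGGCGG and 1 to TGACTCA. Thrsp had 2 matches to CCAAT, and Lpin1 had a match to none of the 7. Fdps, Sqle and Fads1 are named only.

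Genes of fatty acid and triglyceride synthesis were lower as well. Of 28 listed, 25 were measured, 5 fell (Acacb, Fads1, Thrsp, Agpat1 and Lpin1; 1.11% of all genes fell) and none rose, with a median change of -1.07. In 17 members all pregnant arrays lay below all virgin arrays, as in 14.0% of all genes. Acacb, an acetyl-CoA carboxylase, had 8.19, 9.46 and 9.30 in pregnant AzaC cells, against 11.86, 11.00 and 11.17 in virgin AzaC cells. The change was -2.36 (SE 0.40; limma adjusted p = 0.0293), and the groups were well apart. The fatty acid desaturase Fads1 averaged 11.80 ± 0.43 in pregnant cells and 13.23 ± 0.27 in virgin cells (SD, n = 3 each), a change of -1.43 (SE 0.22; limma adjusted p = 0.0243). Thrsp, a lipogenic regulator of the lactating gland, changed by -1.37 (SE 0.26; limma adjusted p = 0.0334). Agpat1 and Lpin1, which act on the way to triglyceride, changed by -1.17 and -0.81 (limma, adjusted p = 0.0333 for each).

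Not every step of lipid synthesis passed the test. Fatty acid synthase (Fasn) had 12.49, 13.26 and 11.49 with the pregnant label, against 14.06, 13.76 and 13.60 with the virgin label, and missed the threshold (change -1.39, SE 0.35; limma adjusted p = 0.0853). Acss2, which makes acetyl-CoA from acetate, had a difference of -1.60 (limma adjusted p = 0.0578). The desaturase Scd1 averaged 14.17 ± 0.11 in pregnant and 14.16 ± 0.03 in virgin cells (SD, n = 3 each), near the top of the scale. The lipogenic factor Srebf1 had a difference of -0.29 (limma adjusted p = 0.584). Outside the list, G0s2, an inhibitor of adipose triglyceride lipase, had 10.27, 11.82 and 10.12 in pregnant cells, against 13.56, 13.07 and 13.10 in virgin cells, and fell by 2.51 (SE 0.45; limma adjusted p = 0.0325). Genes of fatty acid oxidation and PPAR targets had a median change of 0.00 over 25 members, with none called.

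Transcripts of glucose uptake and glycolysis genes showed a smaller shift. The glucose transporter Slc2a1 had 10.31, 10.44 and 10.27 on the pregnant AzaC arrays, against 11.41, 11.34 and 11.48 on the virgin AzaC arrays. Its change of -1.07 (SE 0.12) had the lowest adjusted p of any gene in limma, 0.0125, and it passed under 11 of 15 alternative settings. With the mean of its 3 probe sets the change was -0.94 and did not pass (limma adjusted p = 0.055). Of 17 measured glycolysis genes, 4 fell (Pfkl, Pgam1, Slc2a1 and Hk2), against 1.11% of all genes. None of the 17 rose, and the median change was -0.44. Phosphofructokinase Pfkl and phosphoglycerate mutase Pgam1 each fell by 1.11 (limma, adjusted p = 0.0409 and 0.0318), and hexokinase Hk2 fell by 0.80 (limma adjusted p = 0.0482). Pfkfb3, which makes the activator of phosphofructokinase, went the other way without passing, at 9.18 ± 0.24 in pregnant and 7.51 ± 0.89 in virgin cells (SD, n = 3 each; limma adjusted p = 0.129).

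Of 42 measured genes of oxidative phosphorylation 1 fell, the ATP synthase subunit gene Atp5g1, against 1.11% of all genes. The other 41 did not pass. The median change was -0.58, and 41 members had a negative change (5915 of all 12393 genes). In 34 members all pregnant arrays lay below all virgin arrays (14.0% of all genes). Atp5g1 had 10.39, 11.12 and 10.38 with the pregnant label, against 11.85, 11.76 and 11.96 with the virgin label (change -1.23, SE 0.21; limma adjusted p = 0.0293). The mean level of the 42 genes was 10.87, 11.13 and 11.00 on the pregnant arrays and 11.62, 11.58 and 11.60 on the virgin arrays, and the median change was -0.61 without virgin replicate 1. A list of mitochondrial pyruvate and branched-chain acyl-CoA enzymes was drawn up after the values were seen. It had 14 measured members, all with a negative change (5915 of all 12393 genes), of which 6 fell (1.11% of all genes). Because the list was chosen with these values known, its counts are no independent evidence of a direction. Pdhb, a subunit of pyruvate dehydrogenase, fell by 1.47 (SE 0.20; limma adjusted p = 0.0229), and pyruvate carboxylase (Pcx) fell by 1.06 (limma adjusted p = 0.0453). Cytosolic ribosomal protein genes, given for comparison, had a median change of -0.12 over 28 members, none called.

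Among genes of protein export, Bhlha15, a transcription factor of secretory cells, had 8.09, 9.06 and 8.59 in pregnant AzaC cells, against 10.86, 10.26 and 10.51 in virgin AzaC cells. The change was -1.96 (SE 0.24; limma adjusted p = 0.0199), and it passed under 10 of 15 alternative settings. With the mean of its 2 probe sets the change was -0.97 (limma adjusted p = 0.0389). Of 28 genes of the endoplasmic reticulum and unfolded protein response, 2 fell, against 1.11% of all genes, and the median was -0.39. The 2 were the co-chaperone genes Dnajb11 (-0.86) and Sdf2l1 (-0.83), with limma adjusted p = 0.0452 and 0.0333. A pair of lists drawn up after the values were seen describe the entry of protein into the endoplasmic reticulum and the coated vesicles that carry it on. All 31 measured entry genes had a negative change, with a median of -0.85, and 8 fell: Ssr1, Ssr2, Ssr4, Spcs3, Dad1, Ostc, Tram1 and Srpr. Spcs3, a signal peptidase subunit, averaged 9.43 ± 0.40 in pregnant and 10.68 ± 0.06 in virgin cells (SD, n = 3 each), a change of -1.25 (SE 0.23; limma adjusted p = 0.0333). Of 28 vesicle genes, 7 fell (Sec13, Tmed3, Lman1, Yipf5, Copz1, Sec22b and Sar1a), with a median of -0.73. Sec13, a coat subunit, fell by 1.41 (SE 0.25; limma adjusted p = 0.0318). As these lists were built around called genes, their counts are no independent evidence of a direction.

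**Figure D2:**
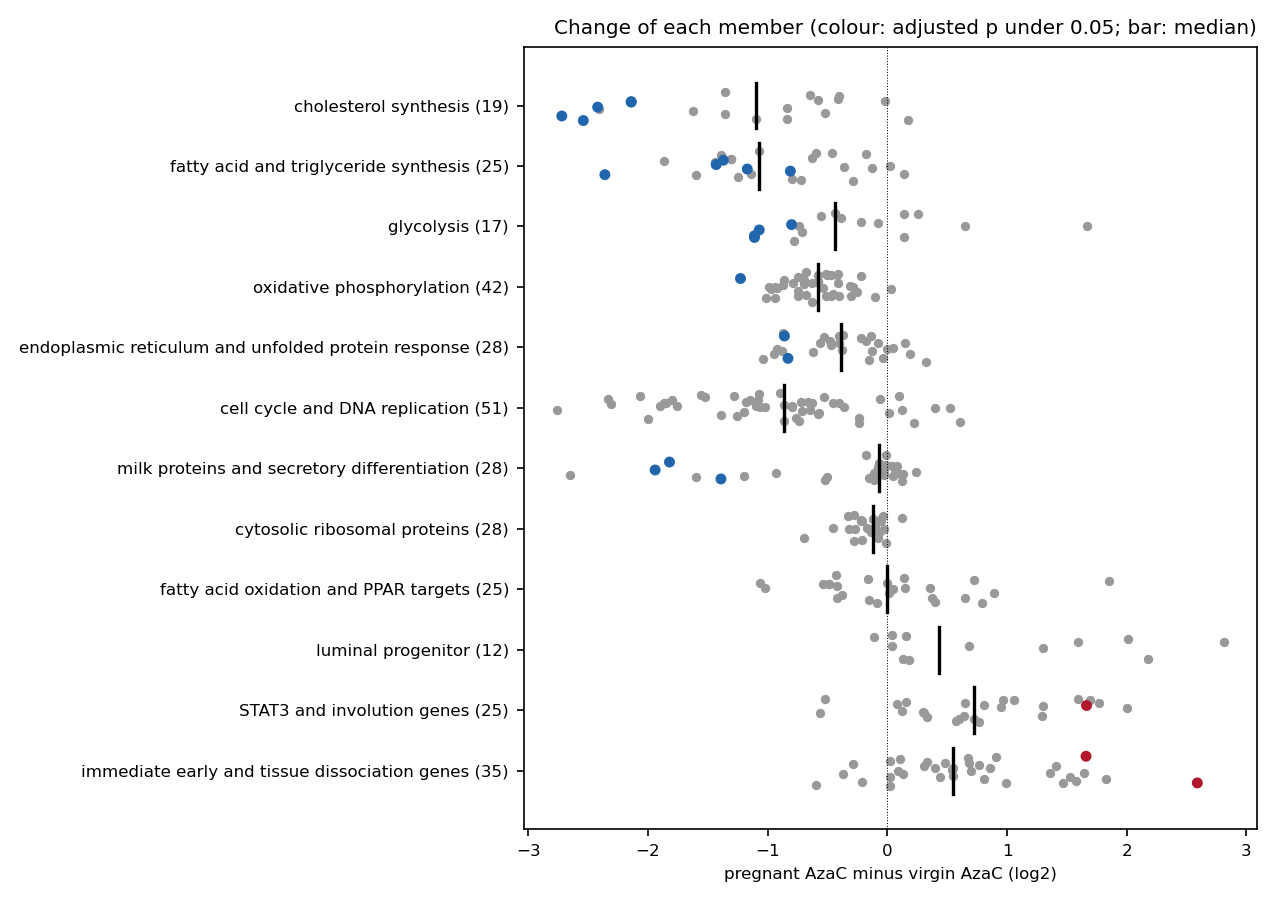
Change of each measured gene (horizontal axis, pregnant AzaC minus virgin AzaC, log2) in 12 gene lists, with the number measured in brackets; blue points fell and red points rose at an adjusted p under 0.05, grey points did not pass, and bars are list medians. The medians run from -1.10 for cholesterol synthesis to 0.72 for STAT3 and involution genes, and the vertical spread of points has no meaning.

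Of 28 measured milk and secretory differentiation genes, 3 fell (Olah, Lpo and Slc34a2), against 1.11% of all genes. None of the 28 rose, and the median was -0.07. In 9 of them all pregnant arrays lay below all virgin arrays (14.0% of all genes), and the mean level of the list was 12.52, 12.78 and 12.51 on the pregnant AzaC arrays, against 13.06, 13.05 and 13.04 on the virgin AzaC arrays. The calcium pump gene Atp2b2 had the largest difference of the list, -2.65, and did not pass (SE 0.67; limma adjusted p = 0.0831). Olah, the thioesterase that ends milk fatty acid chains at medium length, had 10.58, 11.40 and 10.60 with the pregnant label, against 13.05, 12.51 and 12.85 with the virgin label (change -1.94, SE 0.26; limma adjusted p = 0.0229). Lactoperoxidase (Lpo) fell by 1.82 (SE 0.29; limma adjusted p = 0.0243) and the phosphate transporter Slc34a2 fell by 1.39 (SE 0.29; limma adjusted p = 0.0453). Whey acidic protein (Wap) averaged 14.04 ± 0.13 in pregnant and 13.90 ± 0.15 in virgin cells (SD, n = 3 each; limma adjusted p = 0.675). Csn1s1, Csn2, Lalba and Glycam1 had differences between -0.03 and 0.08, and none passed. The alveolar regulator Elf5 had a change of -0.11 and Stat5a, which carries the prolactin signal, one of -0.50 (limma, adjusted p = 0.767 and 0.353). A further 3 genes with roles in the lactating gland, chosen after their values were seen, fell: the transporter Abcg2 (-1.37), Egf (-1.84) and the lipase Lipg (-1.5) (limma, adjusted p = 0.0333, 0.0453 and 0.0409). In bulk samples fewer cells of a type and less RNA per cell cannot be told apart.

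A small set of 15 genes rose. Socs3, the feedback inhibitor of cytokine signalling and a STAT3 target, had 10.85, 10.31 and 9.66 in pregnant AzaC cells, against 8.52, 8.78 and 8.54 in virgin AzaC cells. It rose by 1.66 (SE 0.26; limma adjusted p = 0.0243) and by 1.61 without virgin replicate 1. Zc3h12a, an RNase that degrades cytokine mRNAs, had 8.74, 8.07 and 8.28 with the pregnant label, against 4.53, 6.09 and 6.70 with the virgin label, and rose by 2.59 (SE 0.54; limma adjusted p = 0.0473). The virgin arrays spread widely here, with replicate 1 the lowest. Map3k8, a kinase upstream of MAP kinases, rose by 2.49 (SE 0.53; limma adjusted p = 0.0497), and Card14, an activator of NF-kappaB, by 1.38 (SE 0.26; limma adjusted p = 0.0333). Wfdc12, a secreted protein with a whey acidic protein domain, had 10.98, 9.96 and 10.44 in pregnant cells, against 7.13, 8.92 and 8.63 in virgin cells (change 2.23, SE 0.45; limma adjusted p = 0.0409). E-selectin (Sele), an adhesion molecule of activated endothelium, had 6.65, 6.31 and 6.49 with the pregnant label, against 5.63, 4.42 and 4.48 with the virgin label (change 1.64, SE 0.33; limma adjusted p = 0.0437).

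Some calls rest on values under 5, near the bottom of the scale, and are lost when such values are set to 5. Oprk1, the kappa opioid receptor, had 5.01, 4.25 and 4.46 in pregnant cells, against 0.63, 2.85 and 2.03 in virgin cells (limma adjusted p = 0.0409), and its difference was 0.0 with that floor. Otx2, a homeobox gene, had 2.25, 3.47 and 1.07 with the pregnant label and was listed at 0 on all 3 virgin AzaC arrays (limma adjusted p = 0.0333), so no fold is given, and its difference was 0.0 with the floor. N4bp3 (2.51) and Ddx60, a helicase of the antiviral response (1.23), passed in limma with adjusted p = 0.0398 and 0.0453, and their changes with the floor were 0.44 and 0.59 and did not pass. Zfp932 rose by 1.21 (limma adjusted p = 0.0333). The cardiac regulator Pln rose by 0.95 (limma adjusted p = 0.0394); with the mean of its 3 probe sets the difference was 0.44 and did not pass. Among the called falls, the monocarboxylate transporter Slc16a7 had 1.11, 0.69 and 0.96 in pregnant cells, against 4.34, 2.38 and 3.61 in virgin cells (limma adjusted p = 0.0325). The homeobox gene Rax had 1.57, 0.69 and 2.05 with the pregnant label, against 4.31, 4.25 and 3.16 with the virgin label (limma adjusted p = 0.0325). All values of both genes are under 5, so no size is given, and their differences were 0.0 with the floor.

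Immediate early and tissue dissociation genes are switched on by cells within minutes of stress such as enzymatic digestion. Of 35 such genes 2 rose (Zc3h12a and Socs3), against 0.121% of all genes, and none fell. A positive change was seen in 31 of the 35, against 6417 of all 12393 genes. The median was 0.55, and 0.33 without virgin replicate 1. The mean level of the list was 9.07, 8.81 and 9.21 on the pregnant AzaC arrays, against 7.72, 8.62 and 8.69 on the virgin AzaC arrays. Of 25 STAT3 and involution genes, Socs3 alone passed, 23 had a positive change, and the median of 0.72 was 0.14 without virgin replicate 1. The part of tissue handling in these values was not tested.

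**Figure D3:**
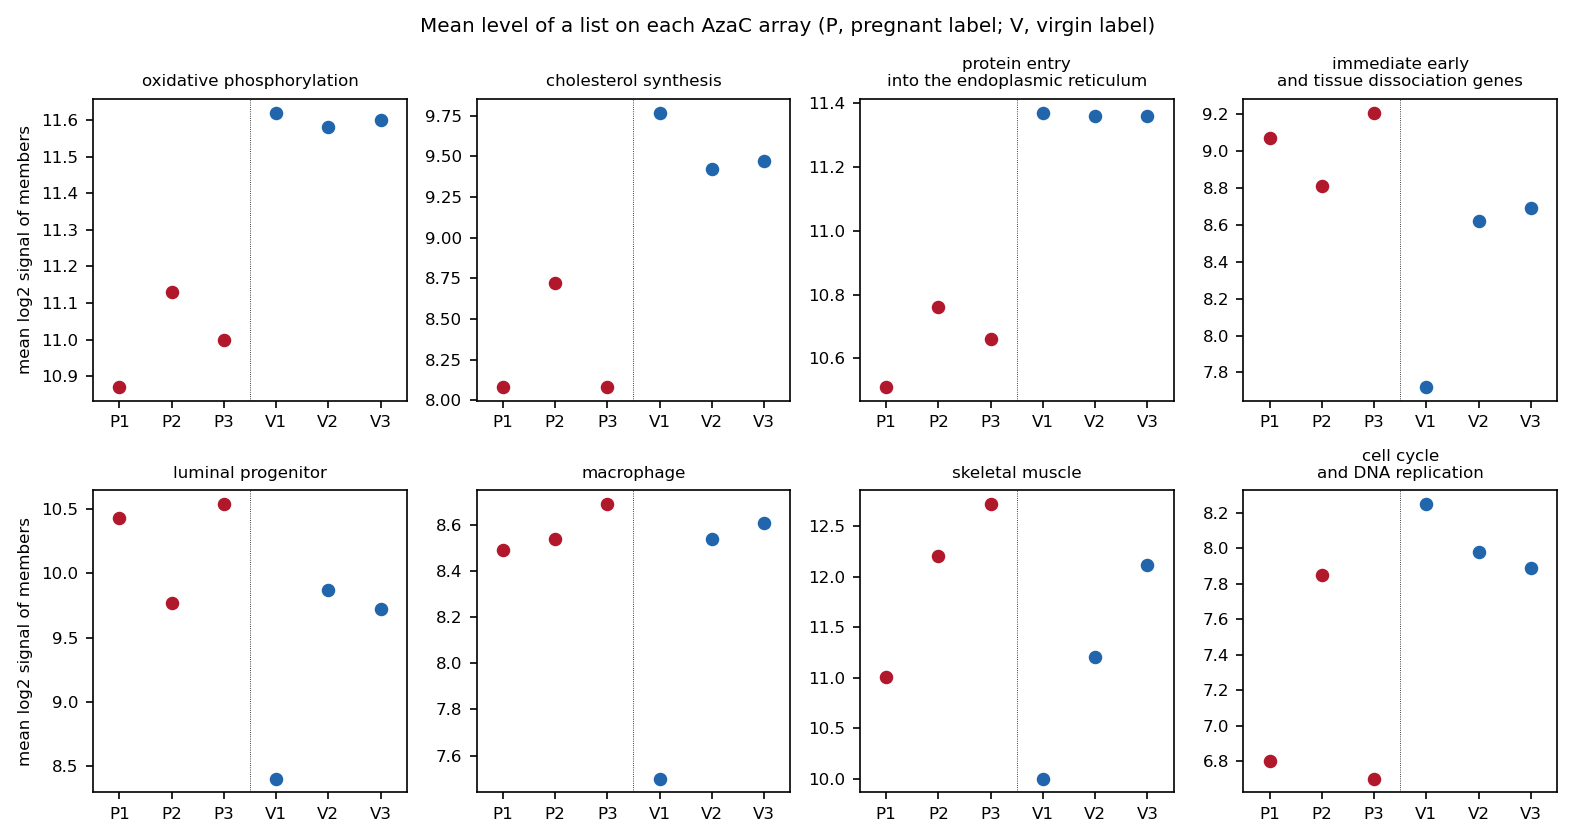
Mean log2 signal of the measured members of 8 gene lists (vertical axis, own range in each panel) on the pregnant AzaC arrays P1 to P3 (red) and the virgin AzaC arrays V1 to V3 (blue). Oxidative phosphorylation, cholesterol synthesis and protein entry separate the labels on every array. The protein entry list was built around called genes after the values were seen, so its separation is no independent result. For luminal progenitor, macrophage and immediate early genes array V1 lies far below V2 and V3. Immediate early genes still separate the labels, with 8.81 on P2 and 8.69 on V3 as the nearest values.

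No marker list of a cell type gave a called rise, but several moved with the arrays that stood apart. Of 12 luminal progenitor markers none passed, and 11 had a positive change (6417 of all 12393 genes). Their median change was 0.43, and 0.24 without virgin replicate 1. Kit, a receptor of luminal progenitors, had 11.79, 10.78 and 11.61 on the pregnant AzaC arrays, against 7.26, 10.41 and 9.98 on the virgin AzaC arrays, with a change of 2.18 (SE 0.80; limma adjusted p = 0.186) that was 1.20 without virgin replicate 1. Aldh1a3 had 9.31, 7.76 and 8.48 with the pregnant label, against 2.68, 7.32 and 7.13 with the virgin label (limma adjusted p = 0.212). Of 13 macrophage markers 11 had a positive change and none passed; their mean level was 8.49 to 8.69 on the pregnant arrays and 7.50 to 8.61 on the virgin arrays, and the median change of 0.44 was 0.02 without virgin replicate 1. Skeletal muscle markers, 12 of 13 with a positive change and none passing, had mean levels of 11.01 to 12.72 with the pregnant label and 10.00 to 12.12 with the virgin label. The skeletal muscle actin gene Acta1 had 12.70, 14.00 and 14.20 on the pregnant arrays, against 11.82, 13.06 and 13.68 on the virgin arrays.

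All 16 fibroblast and matrix markers had a positive change (6417 of all 12393 genes), with a median of 0.45, and none passed. Basal and myoepithelial markers had a median of 0.04, and -0.17 without virgin replicate 1, with Krt14 at 10.29 ± 0.14 in pregnant and 10.27 ± 0.52 in virgin cells (SD, n = 3 each). Luminal epithelium markers, none of 13 called, had a median of 0.66, and 0.21 without virgin replicate 1. The luminal keratin Krt8 averaged 12.88 ± 0.34 in pregnant and 12.03 ± 0.81 in virgin cells (SD, n = 3 each; limma adjusted p = 0.269). Of 8 salivary gland markers, Bhlha15, which many secretory cells share, fell and none rose; their mean level was 5.97 to 6.46 on the pregnant arrays and 6.23 to 7.02 on the virgin arrays, and Smr3a was listed at 0 on 2 pregnant arrays. Hormone-sensing luminal, endothelial, adipocyte, neutrophil, lymphocyte and red blood cell markers had medians between -0.68 and 0.35, with none called. The part of cell composition in the lower synthesis genes was not tested.

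AzaC acts on DNA methylation and on dividing cells, so genes of both were looked at. None of 51 cell cycle and DNA replication genes passed, although 44 had a negative change (5915 of all 12393 genes) and the median was -0.86. In 20 of them all pregnant arrays lay below all virgin arrays (14.0% of all genes). The proliferation marker Mki67 had 6.68, 9.39 and 6.37 in pregnant AzaC cells, against 11.26, 9.72 and 9.74 in virgin AzaC cells, and did not pass (change -2.76, SE 0.92; limma adjusted p = 0.152). The pregnant arrays differed among themselves by about as much as the groups did. Kif20a, a kinesin of cell division, had a difference of -1.39 and came nearest to the threshold in that list (limma adjusted p = 0.0583). With values under 5 set to 5 its difference was -1.3 and passed (limma adjusted p = 0.0488). Uhrf1, which brings Dnmt1 to replicating DNA, had 5.44, 7.97 and 4.63 with the pregnant label, against 8.36, 8.40 and 8.22 with the virgin label (change -2.31, SE 0.82; limma adjusted p = 0.174).

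The maintenance methyltransferase Dnmt1 averaged 10.33 ± 0.21 in pregnant and 10.15 ± 0.20 in virgin cells (SD, n = 3 each; limma adjusted p = 0.656). The de novo enzymes Dnmt3a and Dnmt3b had changes of 0.54 and 0.62 (limma, adjusted p = 0.152 and 0.149). Of 12 genes of the methylation machinery, 16 germline genes normally silenced by methylation and 25 imprinted genes, none passed, and the 3 medians lay between -0.02 and 0.00. Meg3, an imprinted long non-coding RNA, had a change of 1.28 (limma adjusted p = 0.138). With the mean of its 5 probe sets the change was 1.25 and passed (limma adjusted p = 0.0429). The germline gene Tex11 had a change of -0.96 (limma adjusted p = 0.0938). Histone deacetylases and acetyltransferases had a median of 0.22, and 0.08 without virgin replicate 1, with none of 17 called, including Hdac1 at -0.22 and Hdac5 at 0.78 (limma, adjusted p = 0.587 and 0.124).

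The same labels were compared under VPA and PBS in the same model. Under VPA 825 genes passed, 6.66% of those tested (3.7% higher and 2.96% lower). Under PBS 1 gene passed, 0.00807% (limma, with 521 genes at an unadjusted p under 0.05). That gene, Mst1r, is dim, at 2.05 and 2.09 on the pregnant PBS arrays and 0 on the virgin PBS arrays. Salivary gland markers had mean levels of 10.00 and 7.87 on the virgin PBS arrays and 7.08 and 9.09 on the virgin VPA arrays. On the pregnant PBS and VPA arrays they had 5.78 to 6.24. The part of salivary tissue in these comparisons was not tested. The AzaC and VPA comparisons share no arrays, but the fit gave each gene the same estimate of spread in both. A gene with a small spread passes more easily in both, so the calls under the 2 drugs are not independent. Of the 152 genes called under AzaC, 149 had the same sign under VPA (136 of 137 that fell and 13 of 15 that rose), as did 74.4% of all genes. In the same direction 115 were also called under VPA, 75.7% of the AzaC calls and 13.9% of the VPA calls. Across the 12393 genes, which are not independent, the changes under the 2 drugs had a Pearson correlation of 0.61. The genes that fell under AzaC had a median change of -1.05 under VPA and 0.21 under PBS, and the genes that rose had 1.26 under VPA and -0.20 under PBS. In the PBS comparison 30 of the 137 and 4 of the 15 had the sign they had under AzaC. The share of all genes with the same sign under AzaC and PBS was not counted. Across all 12393 genes the changes under AzaC and PBS had a Pearson correlation of -0.1.

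**Figure D4:**
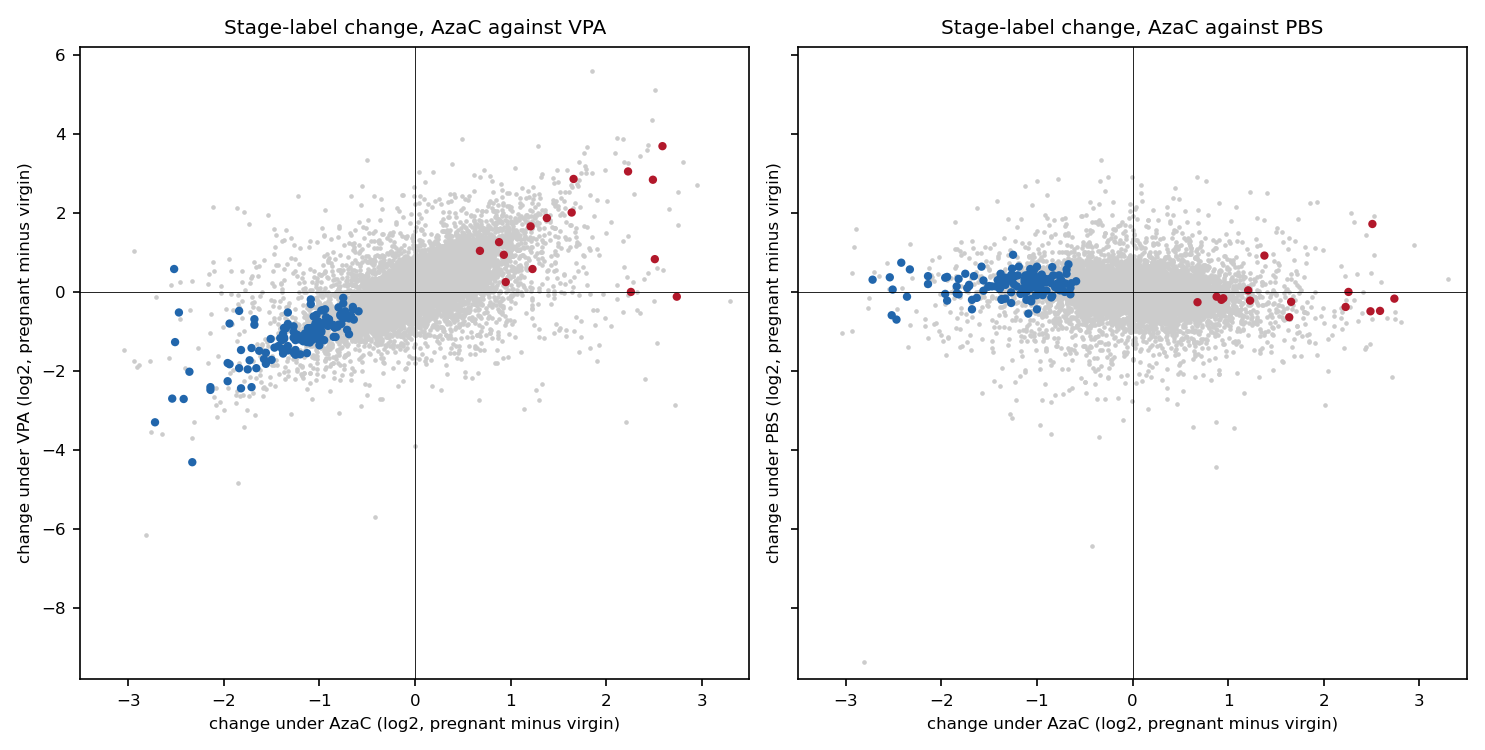
Change with the pregnant label of each of 12393 genes (points) under AzaC (horizontal axis, log2) against its change under VPA (left, vertical axis, log2) and PBS (right); blue genes fell and red genes rose under AzaC, grey genes did not pass. Most coloured points keep their sign under VPA, and under PBS they lie between -0.70 and 1.72 on the vertical axis.

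Gene by gene, the difference in Cyp51 was -2.72 under AzaC, -3.30 under VPA and 0.31 under PBS. The difference in Socs3 was 1.66 under AzaC, 2.86 under VPA and -0.25 under PBS, and that in Olah -1.94 under AzaC, -0.80 under VPA and -0.22 under PBS. Cholesterol synthesis had a median of -1.10 under AzaC, -1.62 under VPA and 0.20 under PBS, and cell cycle genes had -0.86, -1.62 and -0.04. The dim genes Oprk1 and Slc16a7 were among the 3 called genes whose sign was not shared. The difference between the changes was tested directly. No gene passed for AzaC minus VPA in limma (434 at an unadjusted p under 0.05; lowest adjusted p 0.998), and none for AzaC minus PBS (1587 at an unadjusted p under 0.05; lowest adjusted p 0.124). No gene can therefore be called particular to AzaC from this table.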

How the data were processed

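The series matrix holds the authors' processed values of 22690 probe sets on 15 arrays. The deposited values were taken as log2 signals because they run from 0 to 14.48; the base of the logarithm and the summary, background and normalization methods are not given in the sources used here. They were used as deposited, without further normalization. RNA and array steps are as described per the labels' protocols. Gene names came from the platform annotation: 20380 probe sets had 1 symbol, 691 several and 1619 none, and 64 controls were left out. Each symbol was read from its brightest probe set (by the mean of the 15 arrays), giving 12393 genes.

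Groups were taken from the labels. One mean per group was fitted over all 15 arrays with limma 3.58.1 (R 4.3.3; lmFit and eBayes, 9 residual and 2.31 prior degrees of freedom), and p-values were adjusted over all genes by Benjamini-Hochberg, with a threshold of 0.05. Exact permutation tests of single genes were not used, since 3 against 3 arrays cannot go below 0.10. Figures and tables used Python 3.11.15, pandas 2.3.3, numpy 2.4.6 and matplotlib 3.10.9. Principal components used genes with a mean of at least 7.04. The number of arrays limits the precision, and the depth of an array has no count.

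Genes were picked by a rule: the 12 largest rises and falls among called genes with non-overlapping groups, and up to 3 called members of each list or the member with the lowest p. The rule also took the 4 lowest p of each difference test and a fixed set of milk, receptor and epigenetic genes. Not every gene so picked is described. Those left out include Phactr1 and Car5b of the largest falls, the genes of the AzaC minus VPA test and several list members. Other genes named were chosen after their values were seen. The members, the 32 gene lists (19 pathways, 13 cell types) and the tests were chosen with earlier results of these data known, and 3 more lists after the values here were seen. Same-numbered pregnant and virgin AzaC arrays deviated from their group means with correlations of 0.087, -0.033 and 0.217, so the numbers were not taken to pair the samples.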

Additional observations from a re-analysis of the deposited data

How the results depend on the processing

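Under all alternative settings where they were measured, the 152 called genes kept their direction, except 4 when values under 5 were set to 5. Most settings could not have reversed it. Leaving out 1 array cannot reverse groups that do not overlap. Leaving out dim genes, the trended and robust eBayes, fitting only the arrays compared and the 1.5-fold test do not alter the difference itself. With 3 arrays a group and calls near the threshold, the number of genes called under AzaC depends on the setting. The count was 4 after quantile normalization, 376 without the dimmest 40% of genes, 258 with values under 5 set to 5, 271 with a trended and robust eBayes, 2 with only the arrays compared, 447 with the 3' minus 5' difference as a covariate and 0 for a change over 1.5-fold (307 at an unadjusted p under 0.05, limma). None of the 152 genes was among the 2 that passed with only the arrays compared. Their median adjusted p was 0.163 in that setting (limma). Leaving out 1 array in turn gave 0 to 501. For VPA the 825 genes became 421 with only the arrays compared, 1425 with the covariate and 2 over 1.5-fold, and 4 to 258 with 1 array left out. For PBS the 1 gene became 0 without the dimmest genes, with trend and robust, with only the arrays compared and over 1.5-fold, 4 with the floor and 2 with the covariate, and 1 to 22 with 1 array left out. The AzaC minus VPA difference gave 1 gene with the floor and 0 to 3 with 1 array left out, and AzaC minus PBS gave 49 with the floor, 1 with only the arrays compared and 0 to 42 with 1 array left out. Where an array was left out of a group of 2, the lone array was assumed to vary like the others. The causes were not tested. With the replicate number as a block, 64 genes passed under AzaC (3 rose and 61 fell), 239 under VPA and 0 under PBS; the 3 same-numbered AzaC correlations were given above, and not every array matched its own number best.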

Other observations

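Under AzaC, none of 34 TGF-beta and Wnt signalling genes, 21 interferon-stimulated genes, 17 circadian clock genes and 19 p53 targets and growth arrest genes passed in limma. Their median changes with the pregnant label were 0.15, 0.32, -0.02 and 0.08, against 0.02 over all genes. Without virgin AzaC replicate 1 the median was -0.00 for the TGF-beta and Wnt signalling genes and 0.02 for the interferon-stimulated genes. Angptl4, a secreted inhibitor of lipoprotein lipase, had 13.15, 13.23 and 12.18 in pregnant AzaC cells, against 9.06, 11.66 and 12.28 in virgin AzaC cells (change 1.85, SE 0.71; limma adjusted p = 0.203), and the groups overlapped; without virgin replicate 1 the change was 0.88. Its difference under VPA was 5.58 (limma adjusted p = 0.0135). The oestrogen receptor gene Esr1 averaged 5.40 ± 0.41 in pregnant and 6.00 ± 0.37 in virgin AzaC cells (SD, n = 3 each; limma adjusted p = 0.406).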
